A study of Homo sapiens with 12 samples.

Results

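PRMT1 and PRMT5, the enzymes that place most of the asymmetric and most of the symmetric dimethylarginine of human cells, were compared directly by the splicing of transcripts after the knockdown of each. The comparison subtracts the PRMT5 knockdown from the PRMT1 knockdown, event by event, and does not pass through the control. Its members are the 10358 splicing events of the 16199 in the MISO table that have a value in all 7 columns of that table. PSI, percent spliced in, is the share of a gene's transcripts across an event that hold the alternative part, and is given as a fraction from 0 to 1. For mutually exclusive exons both forms hold an exon of the pair. A higher PSI there is a choice between exons and not more inclusion. A difference of at least 0.1 PSI is called differing here, by size alone, and 962 events met it.

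The study made stable HEK293T lines, from a human embryonic kidney cell line, by lentiviral delivery of short hairpin RNAs. There were 12 poly(A) libraries. PRMT1 was targeted by hairpins sh1 and sh3 and PRMT5 by sh1 and sh2, with 1 library each, and the deposited table holds 1 column per target. The other columns are a scramble hairpin (1 library) and knockdowns of PRMT3 (sh1 and sh2), PRMT4 (sh1 and sh3), PRMT6 (sh3) and PRMT7 (sh2 and sh3). All of these cells, scramble included, carry a lentiviral hairpin. Since both hairpins of a target are held in 1 column, no spread between hairpins or cultures was available, no test was run, and a difference can stem from a single hairpin. Transcript levels were not used here, which leaves the extent of either knockdown and the markers of the cell line unchecked. In a bulk library a PSI also cannot tell a change in every cell from a larger change in some of them.

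Protein arginine methyltransferases transfer methyl groups from S-adenosylmethionine to arginines. PRMT1, PRMT3, PRMT4 (also called CARM1) and PRMT6 make asymmetric dimethylarginine, PRMT5 makes the symmetric form, and PRMT7 makes monomethylarginine. PRMT1 is known to act on the arginine- and glycine-rich stretches of many hnRNP proteins, and PRMT5, with its partner WDR77, on the Sm proteins that the SMN complex assembles onto small nuclear RNAs. A cassette exon is included between its flanking introns or skipped, and exon definition and intron definition are the names for recognition of splice sites across exons and across introns.

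To show what the differing exons look like, 8 coding cassette exons are printed, 4 in each direction, with the largest values of the smaller of the MISO and rMATS differences among coding exons of at most 200 bases. They were read from GENCODE transcripts on GRCh38, in the sense of the transcript, 5′ to 3′, and the capitals mark the last 3 bases of each exon, which lie at its 5′ splice site. Exons of higher PSI in PRMT1 knockdown were those of EBPL (chr13:49669777-49669846, minus strand), ZNF195 (chr11:3360720-3360788, minus strand), FAM161A (chr2:61838538-61838705, minus strand) and an exon shared by the symbols SOGA3 and KIAA0408 (chr6:127451282-127451317, minus strand):
EBPL: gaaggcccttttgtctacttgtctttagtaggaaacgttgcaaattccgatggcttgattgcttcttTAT
ZNF195: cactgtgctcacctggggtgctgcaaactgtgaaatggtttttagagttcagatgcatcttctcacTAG
FAM161A: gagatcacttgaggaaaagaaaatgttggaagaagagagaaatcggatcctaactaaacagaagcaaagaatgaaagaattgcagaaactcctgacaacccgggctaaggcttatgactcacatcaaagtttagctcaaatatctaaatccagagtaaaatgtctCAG
KIAA0408: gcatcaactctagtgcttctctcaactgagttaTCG
Exons of higher PSI in PRMT5 knockdown were those of AP1G2 (chr14:23566562-23566686, minus strand), MPHOSPH9 (chr12:123203250-123203375, minus strand), PHTF2 (chr7:77937710-77937838, plus strand) and MBD1 (chr18:50273334-50273471, minus strand):
AP1G2: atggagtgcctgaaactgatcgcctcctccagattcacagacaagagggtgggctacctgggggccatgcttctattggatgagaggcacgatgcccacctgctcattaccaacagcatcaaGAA
MPHOSPH9: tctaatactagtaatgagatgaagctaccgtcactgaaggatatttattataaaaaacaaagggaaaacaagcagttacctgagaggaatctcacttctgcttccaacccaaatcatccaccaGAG
PHTF2: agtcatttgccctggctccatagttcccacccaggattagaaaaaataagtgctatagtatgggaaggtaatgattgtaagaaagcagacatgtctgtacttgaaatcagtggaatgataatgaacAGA
MBD1: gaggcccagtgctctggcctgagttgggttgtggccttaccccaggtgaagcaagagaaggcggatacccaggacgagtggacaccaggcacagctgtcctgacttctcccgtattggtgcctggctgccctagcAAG
GC content ran from 38.1% to 46.4% over the former exons and from 38.1% to 60.9% over the latter, so the ranges overlap, and 5 of the 8 exons end in G. The introns beside them vary widely. EBPL's exon lies between introns of 21407 and 8568 bases, whereas that of AP1G2 lies between introns of 424 and 142 bases and that of MBD1 between introns of 92 and 378 bases.

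Of the 10358 events, 962 differed by at least 0.1, which is 9.29%. PSI was higher in PRMT1 knockdown for 356 of them (3.44% of all events) and higher in PRMT5 knockdown for 606 (5.85%). The share higher in PRMT5 knockdown was thus 63.0% of the differing events (95% exact Clopper-Pearson interval 59.9% to 66.1%). Intervals of this kind cover the counting of events only, and events that share an exon or a gene are not independent. Counted at any size, the threshold set aside, the lean was smaller: 4360 events were higher in PRMT5 knockdown by any amount, 3448 in PRMT1 knockdown, and 2550 were equal at the decimals given. The median difference was 0 and the mean was -0.0068 PSI. A lean to PRMT5 is not particular to the comparison with PRMT1. By the same rule PRMT5 was the higher column in 680 events and the lower in 390 against PRMT3. The counts were 596 and 368 against PRMT4, 662 and 326 against PRMT6, and 523 and 297 against PRMT7.

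At the threshold itself, 142 events differed by exactly 0.1 and were counted, and 192 differed by 0.09 and were not. Larger differences leaned further to PRMT5. At 0.15 or more there were 127 events higher in PRMT1 knockdown and 276 higher in PRMT5 knockdown, at 0.2 or more 59 and 127, and at 0.3 or more 7 and 19. The 962 events lay in 728 genes. Of the 154 genes with several differing events, 71 had all of them higher in PRMT5 knockdown, 30 had all of them higher in PRMT1 knockdown, and 53 held both directions.

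**Figure D1:**
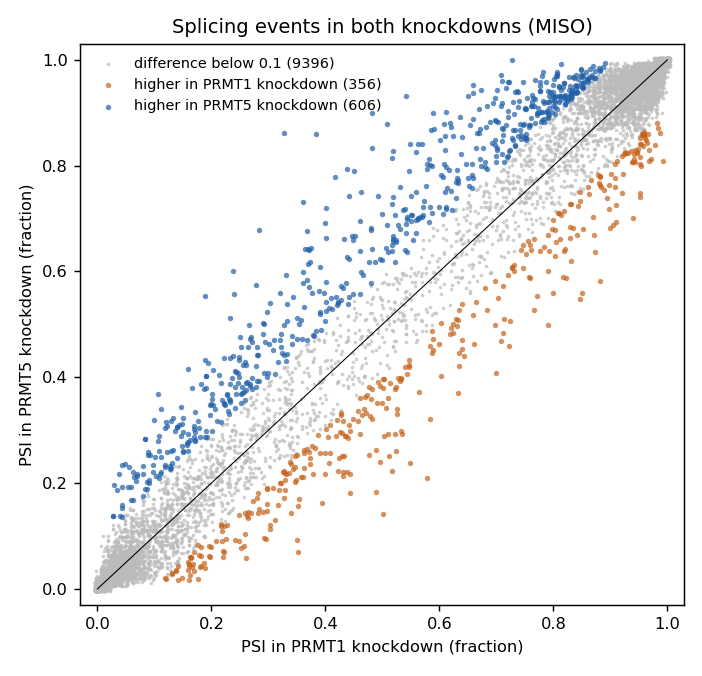
PSI (fraction) of each of the 10358 events in PRMT1 knockdown (horizontal) against PRMT5 knockdown (vertical), 1 point per event, spread by a small random offset because the values have few decimals. The line marks equal values. Blue points, the 606 events higher in PRMT5 knockdown, outnumber the 356 orange points, and 9396 grey events differ by less than 0.1.

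Cassette exons made up the largest number of differing events. Of 6050 exons, 481 differed (7.95%), with 161 higher in PRMT1 knockdown (2.66% of exons) and 320 higher in PRMT5 knockdown (5.29%). The share for PRMT5 was 66.5% of the differing exons (62.1% to 70.7%). Of 940 pairs of mutually exclusive exons 95 differed (10.1%), 33 higher in PRMT1 (3.51%) and 62 higher in PRMT5 knockdown (6.6%), and the share for PRMT5 was 65.3% (54.8% to 74.7%). Of 1152 retained introns 142 differed (12.3%), 52 higher in PRMT1 (4.51%) and 90 higher in PRMT5 knockdown (7.81%), a share of 63.4% (54.9% to 71.3%). Alternative 5′ splice sites differed in 127 of 1037 events (12.2%), 51 higher in PRMT1 (4.92%) and 76 higher in PRMT5 knockdown (7.33%), a share of 59.8% (50.8% to 68.4%). Alternative 3′ splice sites differed in 117 of 1179 events (9.92%) and were balanced, with 59 higher in PRMT1 (5%) and 58 higher in PRMT5 knockdown (4.92%), a share of 49.6% (40.2% to 59.0%). Whether these shares differ between types was not tested, and the intervals of most types overlap. Mean PSI over all cassette exons was 0.609 in PRMT1 knockdown, 0.617 in PRMT5 knockdown and 0.610 in scramble. Over retained introns the means were 0.511, 0.518 and 0.529, so both knockdowns had a lower mean than scramble, which is 1 library. The other knockdowns were below scramble too, at 0.523 for PRMT3, 0.510 for PRMT4, 0.504 for PRMT6 and 0.520 for PRMT7. PRMT4 and PRMT6 were lower than PRMT1.

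A second calculation of the same libraries is held in the authors' deposited table of rMATS differences. Its sign is not stated, and was read from the relation of its own PRMT1 and PRMT5 columns to the MISO difference, so a shared direction is no independent check of the sign. Splice junctions matched 6518 events, and of 601 of these that differed by MISO, 528 (87.9%) lay on the same side in the authors' deposited table, 71 on the opposite side and 2 at 0. The median size of these 601 differences was 0.14 by MISO and 0.054 in the authors' deposited table. Matched events at 0.1 or more in the authors' deposited table numbered 266 (4.08%), 85 higher in PRMT1 knockdown and 181 higher in PRMT5 knockdown. Events at 0.1 or more on the same side in both tables numbered 142, with 41 higher in PRMT1 knockdown and 101 higher in PRMT5 knockdown, and 106 of them were cassette exons (28 and 78). The authors' deposited table holds values of both targets for 70824 events, of which 7470 reached 0.1 (10.5%), and 57.5% of these were higher in PRMT5 knockdown. They include 5731 of 56344 cassette exons (10.2%) and 552 of 4201 retained introns (13.1%) in the authors' deposited table.

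**Figure D2:**
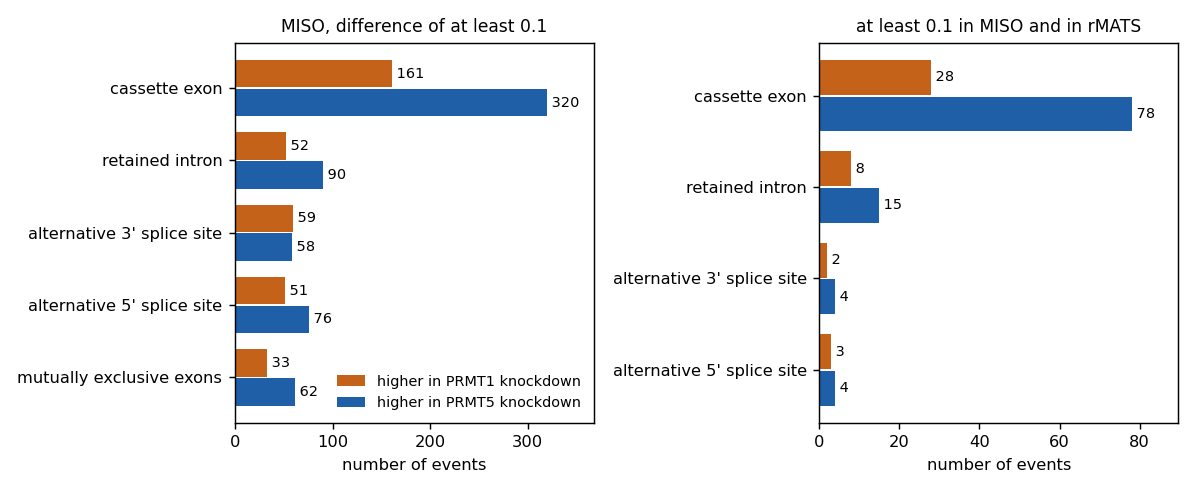
Number of differing events (horizontal) by event type, orange for those higher in PRMT1 knockdown and blue for those higher in PRMT5 knockdown. Left, differences of at least 0.1 PSI by MISO, with 161 and 320 cassette exons; right, events at or past 0.1 on the same side in MISO and in rMATS, with 28 and 78 cassette exons. The rMATS table has no mutually exclusive exons.

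Among exons of higher PSI in PRMT5 knockdown, CDCA3, a mitotic entry factor also known as TOME-1, had an exon of 91 bases (chr12:6958487-6958577, GRCh37, as are all positions from here on) at 0.83 in PRMT5 knockdown and 0.48 in PRMT1 knockdown. Scramble was at 0.56, PRMT3 at 0.67, PRMT4 at 0.49, PRMT6 at 0.40 and PRMT7 at 0.58. PRMT5 was thus the highest of the 7 columns, and PRMT1 lay inside the range of the others. In the authors' deposited table the same difference was -0.221. Places among the columns are given by MISO, and the order in the rMATS table can differ. AP1G2, the gamma-2 subunit of the clathrin adaptor complex AP-1, had the exon printed above (chr14:24035771-24035895) at 0.84 in PRMT5 knockdown, 0.55 in PRMT1 knockdown and 0.56 in scramble. Its other values were 0.76 for PRMT3, 0.65 for PRMT4, 0.51 for PRMT6 and 0.74 for PRMT7. Here again PRMT5 stood above every other column and PRMT1 next to scramble, with -0.232 in the authors' deposited table.

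The exon of PHTF2, a putative homeodomain factor (chr7:77567027-77567155), was at 0.97 in PRMT5 knockdown and 0.71 in PRMT1 knockdown, and the other columns ran from 0.65 for PRMT4 to 0.85 for PRMT6, with scramble at 0.79. The exon of MPHOSPH9, a centriole protein that is phosphorylated in mitosis (chr12:123687797-123687922), was at 0.76 in PRMT5 knockdown and 0.53 in PRMT1 knockdown, with the other columns from 0.40 for PRMT3 to 0.66 for PRMT6. PRMT5 was the highest column in both exons, while PRMT1 was never the lowest. In THTPA, thiamine triphosphatase, both columns lay at the ends. Its exon at chr14:24025952-24026243 was at 0.16 in PRMT1 knockdown, the lowest column, and at 0.42 in PRMT5 knockdown, the highest, with 0.38 in scramble and values from 0.28 to 0.36 in the remaining knockdowns. All 7 differing events of THTPA, which overlap each other, were higher in PRMT5 knockdown.

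MBD1, a protein that binds methylated DNA, had its exon at chr18:47799704-47799841 at 0.61 in PRMT1 knockdown and 0.88 in PRMT5 knockdown, with scramble at 0.79, PRMT3 at 0.90, PRMT4 at 0.80, PRMT6 at 0.73 and PRMT7 at 0.83. PRMT1 was the lowest column and PRMT5 lay within the others. The authors' deposited table gave -0.173. The largest difference of all was an alternative 5′ splice site of INO80E, a subunit of the INO80 chromatin remodeller, at chr16:30012852-30015978, with 0.33 in PRMT1 knockdown and 0.86 in PRMT5 knockdown. Scramble was at 0.45, PRMT3 at 0.40, PRMT4 at 0.35, PRMT6 at 0.21 and PRMT7 at 0.52, so that PRMT5 stood alone. This event, whose alternative part spans 3127 bases, had no match in the rMATS table.

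In the opposite direction, MPZL1, a cell surface glycoprotein that binds the phosphatase SHP2, had an exon of 133 bases (chr1:167742473-167742605) at 0.50 in PRMT1 knockdown and 0.14 in PRMT5 knockdown. Scramble was at 0.42, PRMT3 at 0.50, PRMT4 at 0.20, PRMT6 at 0.34 and PRMT7 at 0.30. PRMT5 was the lowest of the 7 columns, and PRMT1 and PRMT3 were equal at the top. The authors' deposited table gave 0.181, with PRMT5 at -0.198 and PRMT4 at -0.199 from control. GPBP1L1, a relative of the GC-rich promoter-binding protein GPBP1, had a short exon of 45 bases (chr1:46151248-46151292) at 0.52 in PRMT1 knockdown and 0.26 in PRMT5 knockdown. Scramble was at 0.44 and the other knockdowns from 0.26 for PRMT3 to 0.56 for PRMT6, so neither target stood apart from the rest. OCIAD1, a mitochondrial and endosomal protein, used an alternative 5′ splice site at chr4:48854038-48854521 with a PSI of 0.58 in PRMT1 knockdown and 0.21 in PRMT5 knockdown, against 0.43 in scramble and 0.31 to 0.63 in the others.

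PRSS35, a protease-like secreted protein, had an exon (chr6:84231254-84231358) at 0.22 in PRMT1 knockdown, above the 0.06 of PRMT5, the 0.09 of scramble and the 0.10 to 0.15 of the other knockdowns. CEP83, a protein of centriolar distal appendages, had an exon of 53 bases (chr12:94829051-94829103) at 0.52 in PRMT1 knockdown and 0.38 in PRMT5 knockdown, with scramble and the rest from 0.34 to 0.42. By MISO PRMT1 was the highest column in both genes, and PRMT5 was the lowest in PRSS35. In the authors' deposited table the differences were 0.206 for PRSS35 and 0.159 for CEP83. For CEP83 the difference from control in the authors' deposited table was -0.052 for PRMT1, inside the range of the others with control, and -0.211 for PRMT5, below it.

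**Figure D3:**
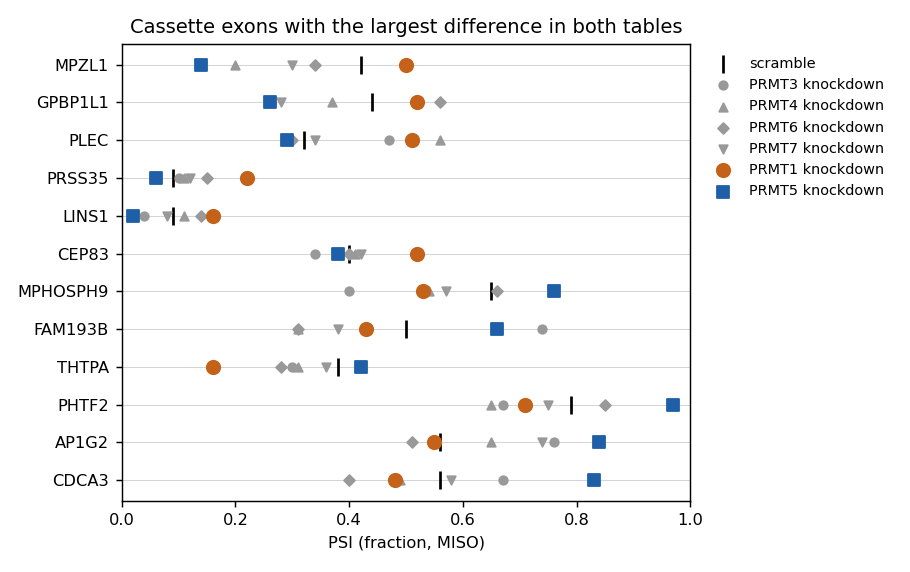
PSI (fraction, MISO) in all 7 columns for 12 cassette exons, 6 in each direction, that have the largest values of the smaller of the MISO and rMATS differences. Orange circles are PRMT1 knockdown, blue squares PRMT5 knockdown, black bars scramble and grey symbols the other knockdowns. In CDCA3 and AP1G2 the blue square lies right of all other symbols, at 0.83 and 0.84, and in THTPA the orange circle lies left of them, at 0.16.

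The place of both columns among the other 5 was counted for all differing events. PRMT5 alone lay outside the range of scramble, PRMT3, PRMT4, PRMT6 and PRMT7 in 371 of the 962 (38.6%), PRMT1 alone in 213 (22.1%), both in 152 (15.8%) and neither in 226 (23.5%). Over all 10358 events the same shares were 16.0%, 11.6%, 6.85% and 65.6%. Since a pair of values far apart is more often at the ends of a range, the shares of differing events are a description of how the difference is made up. Among the 320 exons higher in PRMT5 knockdown, PRMT5 alone was outside in 139 and PRMT1 alone in 55. Among the 161 exons higher in PRMT1 knockdown the order was turned, with PRMT5 alone outside in 39 and PRMT1 alone in 55.

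The nearness of the other columns to PRMT1 and PRMT5 was counted as well. Of the 962 events, the PRMT6 column lay nearer to PRMT1 in 637 and nearer to PRMT5 in 303, and the PRMT4 column in 628 and 314. PRMT7 was nearer to PRMT1 in 524 and to PRMT5 in 411, scramble in 504 and 435, and PRMT3 in 460 and 479. PRMT3 thus lay apart from PRMT4 and PRMT6, although all 3 are asymmetric enzymes. The contrast was widest in the 90 retained introns higher in PRMT5 knockdown, where PRMT6 lay nearer to PRMT1 in 80 and nearer to PRMT5 in 10. In the 161 exons higher in PRMT1 knockdown, PRMT3 lay nearer to PRMT5 in 101 and nearer to PRMT1 in 57. The same rule applied to all 15 pairs of knockdowns gave 608 to 1138 differing events with a median of 854, and PRMT1 against PRMT5 ranked 7th. The highest counts were those of PRMT3 against PRMT6 (1138), PRMT1 (1103), PRMT4 (1075) and PRMT5 (1070), so PRMT3 lay far from PRMT1 and PRMT5 alike.

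**Figure D4:**
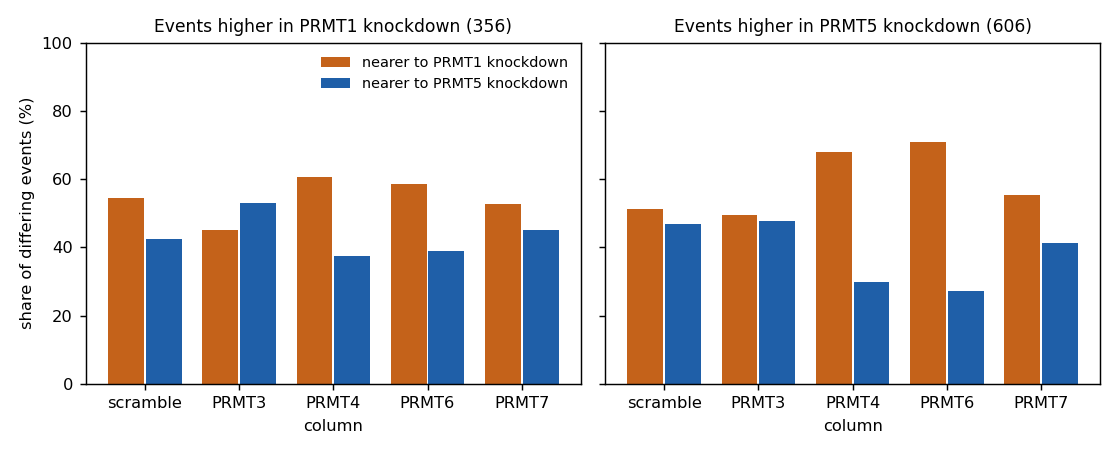
Share of differing events (%, vertical) in which scramble or another knockdown (horizontal) has a PSI nearer to PRMT1 (orange) or to PRMT5 (blue) knockdown. Left, the 356 events higher in PRMT1 knockdown; right, the 606 higher in PRMT5 knockdown. PRMT4 and PRMT6 are nearer to PRMT1 in both panels, while the bars of PRMT3 are close to equal on the right.

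Exons of the opposite directions differed in sequence and in the introns beside them. Exon and intron lengths were taken from the coordinates of the deposited events, for all 161 and 320 exons. Base composition came from GENCODE transcripts that match an exon in its length and in both flanking introns. It was available for 138 exons higher in PRMT1 knockdown and 286 higher in PRMT5 knockdown. Median GC content was 44.9% in the former and 52.4% in the latter. Exons that differed by less than 0.1 and had a mean PSI of 0.1 to 0.9 had a median of 49.4% and lay between. Median length was 117 and 145.5 bases, against 122 bases in the non-differing exons. The intron downstream was longer beside exons higher in PRMT1 knockdown, with a median of 3575 bases against 1288.5 bases, and 2177 bases in the non-differing set, and upstream introns had medians of 2565, 1767 and 2371.5 bases. The last base of the exon was G in 80.4%, 81.5% and 81.3%, and so did not set the groups apart.

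The order of these medians was the same for the exons matched to MISO events that were past 0.1 in the authors' deposited table. Their median GC was 45.8% for 63 exons higher in PRMT1 knockdown and 52.7% for 144 higher in PRMT5 knockdown, of which 57 and 139 had a sequence. Exons past 0.1 in both tables had medians of 42.9% and 53.6%. A gap in GC is not particular to PRMT1 against PRMT5. Among the 15 pairs of knockdowns the gap between directions ran from 1.45 to 9.79 percentage points, and that of PRMT1 against PRMT5, 7.50 points, ranked 5th.

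The 1286 exons with a mean PSI of 0.1 to 0.9, or for GC the 1157 of them with a sequence, were divided into 5 groups of near equal size. The balance of directions differed between the groups of each feature, but not in even steps. In the group of lowest GC (22.2% to 41.2%), 39 exons were higher in PRMT1 knockdown and 33 in PRMT5 knockdown, and in the group of highest GC (58.7% to 77.2%) 21 and 65. Exons of 9 to 81 bases gave 47 and 34, those of 115 to 145 bases 20 and 70, and those of 207 to 9437 bases 30 and 81. With a downstream intron of 73 to 503 bases the counts were 16 and 91, and with one of 6757 to 94861 bases 46 and 43. The groups between gave, by rising length, 33 and 56, 13 and 55, and 28 and 43. Short, GC-poor exons and those before long introns were therefore the groups in which PRMT1 was the higher column at least as often as PRMT5. For those of these exons that matched the authors' deposited table, the shortest also leaned to PRMT1 there (21 and 15). The lowest GC group did not (11 and 21), nor did the longest downstream introns (15 and 17).

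GC content and intron length go together in the genome, so they were crossed. Among exons at or above the median GC of 49.6% with a downstream intron below the median, 20 were higher in PRMT1 knockdown and 105 in PRMT5 knockdown, 84.0% for PRMT5 (76.4% to 89.9%). The counts were 24 and 44 for GC-rich exons before long introns, 30 and 49 for GC-poor exons before short introns, and 42 and 56 for GC-poor exons before long introns. Of these 4 groups, the one of high GC and short introns had the largest share for PRMT5. Without regard to GC, the groups of shortest introns gave 16 and 91 (downstream, above) and 9 and 77 (upstream, 75 to 506 bases). These groups hold far shorter introns than a cut at the median, so their lean is not comparable with that of the crossed groups. Median GC of their exons was also above 49.6%, so they do not separate intron length from GC.

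**Figure D5:**
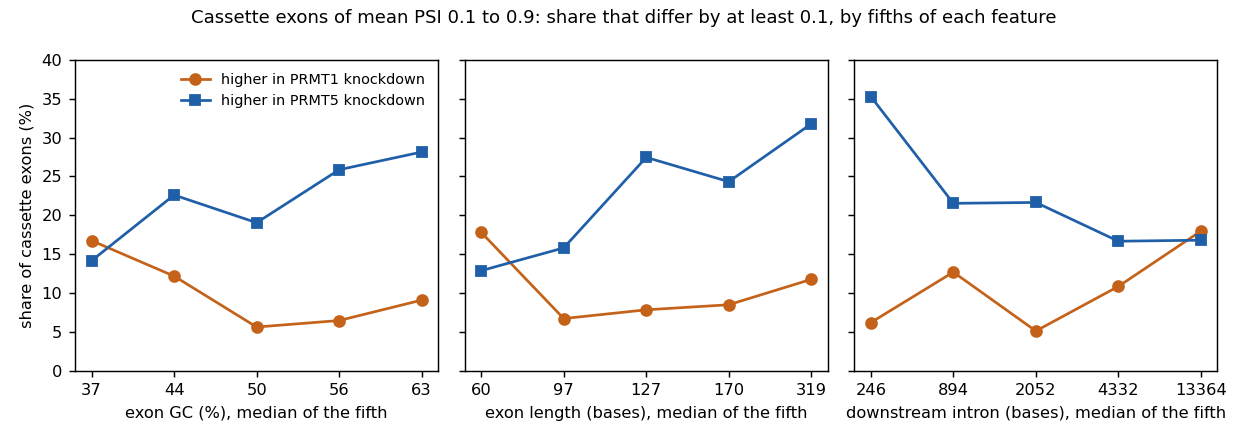
Share of cassette exons (%, vertical) that differ by at least 0.1 PSI, orange for higher in PRMT1 knockdown and blue for higher in PRMT5 knockdown, in 5 groups of equal size by exon GC, exon length and downstream intron length (horizontal, labelled with the median of each group). The blue line lies above the orange one except in the lowest GC group, the shortest exons and the longest introns, and is farthest above it for introns of 73 to 503 bases, at 35.3% against 6.20%.

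Reading frame and exon size were counted next. Of exons over 30 and under 300 bases, 176 of 2293 with a length divisible by 3 differed (66 and 110 higher in PRMT1 and PRMT5 knockdown) and 233 of 3220 with another length (71 and 162). Exons of 300 bases or more differed in 66 of 451 cases (22 and 44), and those of up to 30 bases in 6 of 86 (2 and 4). Of the exons at an intermediate level in scramble (0.25 to 0.75), 43.3% of 503 differed, 72 higher in PRMT1 knockdown and 146 higher in PRMT5 knockdown. At 0.05 to 0.25 in scramble the counts were 46 and 50 of 732 exons, and at 0.75 to 0.95 they were 32 and 103 of 1152. Median scramble PSI was 0.42 for exons higher in PRMT1 knockdown and 0.63 for those higher in PRMT5 knockdown. The splits by GC, length and intron did not hold this level equal.

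Long retained introns leaned to PRMT5 knockdown, whereas short ones had somewhat more calls for PRMT1 knockdown, without a clear lean by MISO. Of 345 introns of up to 200 bases, 24 had a higher PSI in PRMT1 knockdown and 15 in PRMT5 knockdown. That is 38.5% for PRMT5 (23.4% to 55.4%), an interval that holds an even split. Counted at any size, the short introns gave 147 and 133. Of 807 longer introns 28 and 75 differed, 72.8% for PRMT5 (63.2% to 81.1%). At any size the longer introns gave 290 and 370, a smaller lean. With a single mean for events that share an intron, the counts were 24 and 14 for short and 23 and 69 for long introns. Over all introns of the authors' deposited table the counts were 134 and 92 of 1753 short introns and 119 and 207 of 2448 long introns, the same order. In the subset of that table matched to MISO events, few introns passed, 4 and 6 short and 11 and 20 long, and the short introns did not lean to PRMT1 there. The split by length is not particular to this pair: PRMT1 was the higher column in 62.2% of short and 23.5% of long differing introns against PRMT7, beside 61.5% and 27.2% against PRMT5.

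A 282-base intron of PIDD1, a death-domain protein activated by p53 (chr11:802892-803173), had a PSI of 0.37 in PRMT1 knockdown and 0.64 in PRMT5 knockdown, with scramble at 0.60 and the others from 0.37 for PRMT4 to 0.48 for PRMT6. PRMT5 stayed near scramble, and PRMT1 was with PRMT4 at the low end. In NFATC4, a calcineurin-regulated transcription factor, an intron of 759 bases (chr14:24846085-24846843) was at 0.52 in PRMT1 knockdown and 0.74 in PRMT5 knockdown, against 0.64 in scramble, 0.83 in PRMT3, 0.51 in PRMT4, 0.37 in PRMT6 and 0.69 in PRMT7, so neither was at an end of the range. The authors' deposited table gave -0.215 for PIDD1 and -0.176 for NFATC4. Of introns in the other direction, that of VPS28, a subunit of the ESCRT-I sorting complex (118 bases), was at 0.38 in PRMT1 knockdown and 0.22 in PRMT5 knockdown, and that of EDC4, a scaffold of mRNA decapping (108 bases), at 0.43 and 0.25. PRMT5 was the lowest of the 7 columns in both introns, with scramble at 0.38 for VPS28 and 0.41 for EDC4.

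Named groups of genes were read by their counts against the 9.29% of all events that differed. The set with the highest share among those with over 100 events was chromatin remodelling and acetylation, in which 17 of 107 events differed (15.9%), 5 higher in PRMT1 knockdown and 12 higher in PRMT5 knockdown, and 11 of them by at least 0.2. These 17 events lie in 10 of 39 measured genes. BPTF, the largest subunit of the NURF remodeller, held 4 and DAXX, a chaperone of histone H3.3, also 4. In BPTF an exon of 174 bases (chr17:65959449-65959622) was at 0.51 in PRMT1 knockdown and 0.88 in PRMT5 knockdown, with scramble at 0.58, PRMT3 at 0.84, PRMT4 at 0.63, PRMT6 at 0.52 and PRMT7 at 0.72. PRMT1 was the lowest and PRMT5 the highest column by MISO. The authors' deposited table gave -0.146, with PRMT6 and not PRMT1 the lowest and PRMT3 and not PRMT5 the highest there. A BPTF exon of 189 bases was at 0.54 and 0.93, but at only -0.038 in the authors' deposited table. The 4 DAXX events are forms of 1 exon region and differed by -0.18 to -0.24 by MISO, whereas the 3 that matched were between -0.009 and -0.014 in the authors' deposited table. KAT6A, a histone acetyltransferase, had an exon of 132 bases at 0.36 in PRMT1 knockdown and 0.58 in PRMT5 knockdown, above the 0.33 to 0.41 of the other columns, with -0.188 in the authors' deposited table. BAZ1A, a subunit of the ACF remodeller, went the other way with an exon of 96 bases at 0.95 and 0.75, outside the 0.78 to 0.90 of the other columns on both sides.

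Genes for known substrates of either enzyme lay on both sides of the background. Of genes for known PRMT1 substrates 6 of 55 events differed (10.9%), 1 higher in PRMT1 knockdown and 5 in PRMT5 knockdown, and of those for known PRMT5 substrates 3 of 46 (6.52%), all higher in PRMT5 knockdown. HNRNPA1, an hnRNP protein on both lists, had a 156-base exon (chr12:54676863-54677018) at 0.27 in PRMT1 knockdown and 0.50 in PRMT5 knockdown, with the other columns from 0.20 to 0.32. By MISO PRMT5 stood alone, yet the value of the authors' deposited table was only -0.024. RBM15, an adaptor of the m6A methyltransferase complex, had an exon at 0.29 and 0.48, and PRMT5 was above the 0.28 to 0.38 of the other columns, with -0.105 in the authors' deposited table. The Sm and snRNP assembly genes had 4 of 36 events differing (11.1%), 2 in each direction. A 54-base exon annotated to SMN1 and SMN2 was at 0.82 in PRMT1 knockdown, 0.59 in PRMT5 knockdown and 0.69 to 0.79 in the other columns, with 0.038 in the authors' deposited table. Reads of these near-identical paralogs can be assigned to either, so the value belongs to both genes together.

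Genes of the splicing machinery were near the background. The core spliceosome had 4 of 56 events differing (7.14%), SR and TRA2 proteins 6 of 86 (6.98%) and hnRNP proteins 7 of 94 (7.45%). Of the 7 hnRNP events, 6 were higher in PRMT5 knockdown, beside 63.0% of all differing events. Of the 5 with a match, 4 lay on the same side in the authors' deposited table. The largest by MISO, in HNRNPD (-0.27) and HNRNPA1 (-0.23), were only -0.001 and -0.024 there. Tissue splicing regulators had 10 of 84 (11.9%), 6 of them higher in PRMT1 knockdown and 4 of those in QKI, a STAR-family RNA-binding protein. The 4 QKI events overlap. An intron of 947 bases (chr6:163984752-163985698) enters 2 of them, and in the event with the larger difference was at 0.48 in PRMT1 knockdown and 0.25 in PRMT5 knockdown, with scramble at 0.34 and the rest from 0.28 to 0.45, so that both columns lay outside. In the event with the smaller difference the intron was at 0.87 in PRMT1 knockdown, inside the 0.78 to 0.92 of the other columns, and at 0.67 in PRMT5 knockdown, below them. The authors' deposited table gave 0.113 for this intron, with PRMT1 at -0.103 from control, again inside the range of the others, and PRMT5 at -0.216, below it.

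DNA repair had the lowest share of the lists with over 100 events, 5 of 144 (3.47%), all higher in PRMT5 knockdown by MISO. Of the 2 of these with a match, 1 lay on the same side in the authors' deposited table. Cytoskeleton and motor genes had 8 of 130 (6.15%). Mitosis and cell cycle genes had 20 of 163 (12.3%), 8 and 12 in each direction. There PCNT, pericentrin of the centrosome, used an alternative 5′ site at 0.61 in PRMT1 knockdown and 0.78 in PRMT5 knockdown, inside the 0.61 to 0.86 of the other columns, and the authors' deposited table also gave -0.167. Apoptosis genes had 10 of 70 (14.3%), 5 in each direction. The 4 of BIRC2, a ubiquitin ligase that restrains cell death, were all higher in PRMT1 knockdown and begin at the same position, and XIAP, an inhibitor of caspases, had an exon at 0.23 in PRMT1 knockdown and 0.37 in PRMT5 knockdown, above the 0.15 to 0.24 of the other columns. Translation factors had 12 of 132 (9.09%), 3 and 9. EIF4A2, an eIF4A helicase, had an exon of 111 bases at 0.30 in PRMT1 knockdown and 0.11 in PRMT5 knockdown, against 0.09 to 0.25 in the other columns. The authors' deposited table gave 0.107, and its differences from control were 0.003 for PRMT1 and -0.104 for PRMT5, so PRMT1 stood above the other columns by MISO but not in the authors' deposited table, where PRMT6 was at 0.061.

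Other lists gave 11 of 102 for RNA helicases (10.8%), 8 of 88 for mRNA 3′ end formation and decay (9.09%), 8 of 86 for histone and DNA methylation (9.30%), 4 of 30 for the MAP kinase cascade (13.3%) and 1 of 22 for SR protein kinases (4.55%). MDM2, the p53 ubiquitin ligase, was the only gene with values among 4 reported splice targets of PRMT5, and none of its 21 events differed. Of the 20 lists, 10 had a share above that of all events, and 7 had at a threshold of 0.2, where 1.8% of all events differed.

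In the genes of the enzymes and their cofactors, 3 of 18 events differed (16.7%), a small number of events. The 4 events of PRMT5 had PSI of 0.97 to 0.98 in both knockdowns and differences of 0 to 0.01, and no event of PRMT1 had values in all columns. PRMT2, a relative with weak activity, had an exon of 172 bases (chr21:48083295-48083466) at 0.80 in PRMT1 knockdown and 0.96 in PRMT5 knockdown. Scramble was at 0.95, PRMT3 and PRMT4 at 0.93, PRMT6 at 0.81 and PRMT7 at 0.87. PRMT1 and PRMT6 were thus the low columns, and the authors' deposited table gave -0.083. MAT2A, which makes S-adenosylmethionine, had an intron of 191 bases (chr2:85769497-85769687) at 0.22 in PRMT1 knockdown and 0.36 in PRMT5 knockdown. Scramble was at 0.25, PRMT3 at 0.45, PRMT4 at 0.24, PRMT6 at 0.17 and PRMT7 at 0.32, so PRMT3 and not PRMT5 was the highest, and the authors' deposited table gave -0.116. The remaining differing event was in MTAP, the methylthioadenosine phosphorylase, whose exon was at 0.88 in PRMT1 knockdown and 0.76 in PRMT5 knockdown.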

How the data were processed

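Stranded poly(A) libraries were sequenced as paired-end reads, per the labels' protocols. cutadapt 1.18, HISAT and build GRCh37 come from the submitters' processing notes. For HISAT, MISO and rMATS the version is not given in the sources used here, nor is the annotation or the way 2 hairpins became 1 column. PSI was deposited by the authors as a fraction (MISO), and a further table as differences in PSI (rMATS), without read numbers, so depth is unknown and no interval on a PSI is given.

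Computed here (Python 3.11.15, pandas 2.3.3, numpy 2.4.6, scipy 1.17.1) were PRMT1 minus PRMT5 per event, calls at 0.1 PSI, 95% exact intervals of shares, and the same from rMATS, whose values were read as control minus knockdown, for events matched by splice junctions. Exons were matched to GENCODE transcripts (GRCh38) by exon and intron lengths, with no conversion of coordinates. The calling of events was tested on simulated differences. For alternative sites the inclusive form is that of MISO.

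The members, lists and rules were chosen with earlier results of these data known. Named events were, 1 per gene, the 10 largest per direction, the 6 exons or 3 other events per type and direction with the largest smaller value of both tables, up to 4 genes per list, and the PRMT genes; BPTF's exon of 174 bases, KAT6A, BAZ1A, all events of genes with several, and the printed exons outside this rule were chosen after their values were seen. Alternatives are given in the closing section.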

Additional observations from a re-analysis of the deposited data

How the results depend on the processing

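The count of 962 became 186 at a threshold of 0.2 and 2393 at 0.05, 3888 on the logit scale (threshold 0.5, PSI held within 0.01 to 0.99), 266 over matched events and 7470 over every event in the authors' deposited table. The share of differing cassette exons higher in PRMT1 knockdown, 33.5%, was 28.0% at 0.2, 39.9% on the logit scale and 41.3% over every event in the authors' deposited table. That of retained introns, 36.6%, was 45.8% over every event in the authors' deposited table. That of alternative 3′ sites, 50.4%, was 31.2% at 0.2 (16 events, 11.0% to 58.7%) and 28.6% over matched events of the authors' deposited table (7 events, 3.67% to 71.0%), with intervals that hold the main value. PRMT5 alone outside the other columns went from 38.6% to 46.8% at 0.2. The cause of these moves was not tested. Centring each event type on its median could change nothing, because the median difference was 0 in every type. Leaving out events with a mean PSI outside 0.05 to 0.95, using events with a value in both columns and taking 1 value per alternative part were also tried. With each, the count of differing events stayed within 1.5 times and the shares by direction within their interval. The first of these filters kept 4746 events, so that 959 differing events were 20.2% of those left, and the mean difference of cassette exons was -0.0168 PSI in place of -0.0076. Of the named events with a match, 41 kept their direction and 0.1 in the authors' deposited table, 32 lay below 0.1 without an opposite sign (HMGN2 among them, listed at 0 there) and 5 had the opposite sign: DDX11 (0.19 by MISO, -0.029 in the authors' deposited table), SON (0.13 and -0.037), KDM6A (0.14 and -0.013), RAD51AP1 (-0.24 and 0.017) and BCL2L13 (0.16 and -0.08). The splits by intron length and exon GC and their repeats in rMATS were chosen after seeing the data. No paired analysis was possible because each target has 1 column and hairpin numbers do not pair targets. With no depth and no replicate, no difference here has an error of its own.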
